A study of Mus musculus with 4 samples.

Results

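The nuclear respiratory chain genes were described by cell type in immune cells sorted from mouse tumours. They are the nuclear genes for subunits of complexes I, III and IV and of the ATP synthase (complex V), with the Ndufaf assembly factors of complex I. All symbols in the files that start with Ndufa, Ndufb, Ndufc, Ndufs, Ndufv, Uqcr, Cox4 to Cox8 or Atp5 were taken, without pseudogenes marked -ps, which gave 88 of 27998 genes. Complex I had 43 of them (7 core subunits, 29 accessory subunits and 7 assembly factors), complex III 8, complex IV 20 and complex V 17. The rule also took in Cox7a2l, which acts in supercomplexes of complexes III and IV, and Atp5s and Atp5sl, which are no subunits of the ATP synthase.

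The cells were live CD45+ cells from subcutaneous B16F10-OVA tumours, a mouse melanoma line that carries ovalbumin, and were sequenced by a droplet method that reads the 3' ends of transcripts. The 4 libraries came from wild-type C57BL/6 mice at day 9 and day 12 after injection and from mice with a T cell conditional knockout of the microRNA gene Mir155 (miR-155 TCKO, called knockout here) at the same days. Each mouse had received 1000000 tumour cells, and all 4 samples, the knockout ones included, carry the strain label C57BL/6 (WT). Each genotype and day was 1 library made from pooled tumours, so the genotypes are replicated only across the 2 days, and the promoter that drives the deletion is not given in the sources used here. By this design the deletion concerns T cells, and the other cell types are compared as bystanders.

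The libraries held 1778 to 3749 cell barcodes with a median of 7379 to 9655 UMIs, unique molecules counted, per barcode, and any pair of libraries shared 4 to 16 barcodes. Of 10944 cells kept, 9296 (84.9%) fell into 11 types by UMI counts of listed marker genes, none of them a respiratory chain gene, with T cells that held neither enough Cd8 nor Cd4 UMIs as other T cells. The gate markers differ between types by construction: CD8 T cells held Cd3d at 1321 UMIs per 1000000 (CPM) and macrophages at 4.15. Macrophages held C1qb, also a gate marker, at 4155 CPM and monocytes at 29.3. Ly6d, a marker not used in the gates, stood at 3612 CPM in plasmacytoid dendritic cells (pDC) and at most at 9.14 CPM in any other type. Mir155hg, the host transcript of miR-155, had 85 and 21 UMIs in the T cells of the wild-type libraries at day 9 and day 12 and 0 in those of both knockout libraries, where a count of 0 allows up to 0.787 and 2.56 CPM. Whether the counted 3' end lies within the deletion is not known. Values below are UMIs of a gene per 1000000 UMIs of that cell type in that library, or shares of all UMIs in percent, and a gene was called where edgeR's quasi-likelihood test gave a Benjamini-Hochberg adjusted p under 0.05 over all genes tested and a fold of at least 1.5.

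Complex I takes electrons from NADH and complex III from ubiquinol, complex IV hands them to oxygen, and the proton gradient that the 3 complexes build drives the ATP synthase. The mitochondrial genome encodes 13 subunits of these complexes and the nucleus all others, so the chain is put together from transcripts of both genomes. Several complex IV subunits come in alternative forms from separate genes, of which one is widespread and the other is known from muscle, lung or testis. Dendritic cells, T cells and macrophages are known to shift between oxidative and glycolytic metabolism when they are activated.

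RefSeq promoter windows (GRCm38.p6, 250 bases before to 50 bases after a transcription start) were found for 73 of the 88 genes. The windows not in the table included those of Atp5a1, Cox4i1, Cox4i2, Cox6a2, Cox6c, Cox8c, Ndufa2, Ndufa4l2, Ndufaf6, Ndufb9, Ndufs1, Uqcrb, Uqcrc2 and Uqcrq. The palindromic core of the site of nuclear respiratory factor 1, whose 10 letters are the capitals in Uqcrc1 below, stood in 7 of the 73 windows (9.59%: Atp5g2, Atp5k, Cox6a1, Ndufa11, Ndufaf4, Ndufaf5 and Uqcrc1) and in 0.977% of 27025 windows of all genes. The ETS family motif CCGGAAG, searched on both strands like the others and free of overlap with the palindrome, stood in 14 of 73 (19.2%) against 9.12% of all windows. The E-box CANNTG (74.0% against 72.1%), CCAAT (43.8% against 37.9%) and TATAAA (9.59% against 14.2%) lay nearer to the background. The median number of CpG dinucleotides was 20 in these windows and 7 in all. The windows of 3 genes are printed because the genes recur below: a widely expressed complex IV subunit with both motifs, a complex III core protein with the palindrome, and an alternative complex IV subunit with neither. Capitals mark the palindrome and the ETS motif (CTTCCGG on the strand shown), and each sequence runs 5′ to 3′ on the gene's strand.
Cox6a1, chr5:115348909-115349208, minus strand: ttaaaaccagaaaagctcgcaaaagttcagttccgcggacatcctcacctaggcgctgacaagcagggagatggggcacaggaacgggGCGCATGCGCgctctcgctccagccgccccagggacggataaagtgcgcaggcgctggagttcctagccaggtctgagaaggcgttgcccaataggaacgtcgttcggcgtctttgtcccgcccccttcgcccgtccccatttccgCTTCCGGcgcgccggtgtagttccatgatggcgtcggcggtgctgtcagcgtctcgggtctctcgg
Uqcrc1, chr9:108936398-108936697, plus strand: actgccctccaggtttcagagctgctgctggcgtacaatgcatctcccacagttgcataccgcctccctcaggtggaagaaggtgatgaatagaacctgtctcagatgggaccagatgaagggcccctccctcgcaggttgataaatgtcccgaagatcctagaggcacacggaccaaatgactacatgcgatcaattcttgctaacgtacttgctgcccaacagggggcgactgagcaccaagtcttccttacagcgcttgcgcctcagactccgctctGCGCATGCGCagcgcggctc
Cox6b2, chr7:4753045-4753344, minus strand: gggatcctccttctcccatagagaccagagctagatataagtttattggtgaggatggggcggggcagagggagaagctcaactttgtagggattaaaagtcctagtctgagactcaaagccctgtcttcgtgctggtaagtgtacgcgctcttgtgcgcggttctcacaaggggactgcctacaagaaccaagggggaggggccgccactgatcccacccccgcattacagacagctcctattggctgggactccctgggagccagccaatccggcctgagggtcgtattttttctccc

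Of the 88 genes, 85 had UMIs. Cox7b2, Cox8b and Cox8c, alternative forms of complex IV subunits, had 0 UMIs in every gated type, and Ndufa4l2, a relative of Ndufa4, had 10 UMIs, 9 of them in macrophages. The sum of all 88 genes made up 1.93% to 3.02% of the UMIs of a type in a library. It was lowest in mature dendritic cells in every library (1.98%, 2.04%, 1.98% and 1.93% in wild-type day 9, knockout day 9, wild-type day 12 and knockout day 12, the order used for all sets of 4 values below). Macrophages held 2.79%, 2.87%, 2.88% and 2.80%, pDC 2.65%, 2.70%, 2.71% and 2.78%, and cDC1, the cross-presenting conventional dendritic cells, 2.61%, 2.59%, 2.61% and 2.64%. These 4 types varied by at most 0.0543 percentage points (SD, n = 4 libraries), and mature dendritic cells did not overlap with any other type. CD8 T cells varied most, with 3.02%, 2.14%, 2.59% and 2.29% (SD 0.389). NK cells (mean 2.60% ± 0.103), monocytes (2.61% ± 0.143), cDC2, the Cd209a+ conventional dendritic cells (2.63% ± 0.136), and regulatory T cells (2.57% ± 0.0844) overlapped one another. Other T cells had a mean of 2.27% ± 0.0923 and conventional CD4 T cells one of 2.41% ± 0.195 (SD, n = 4 libraries).

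**Figure D1:**
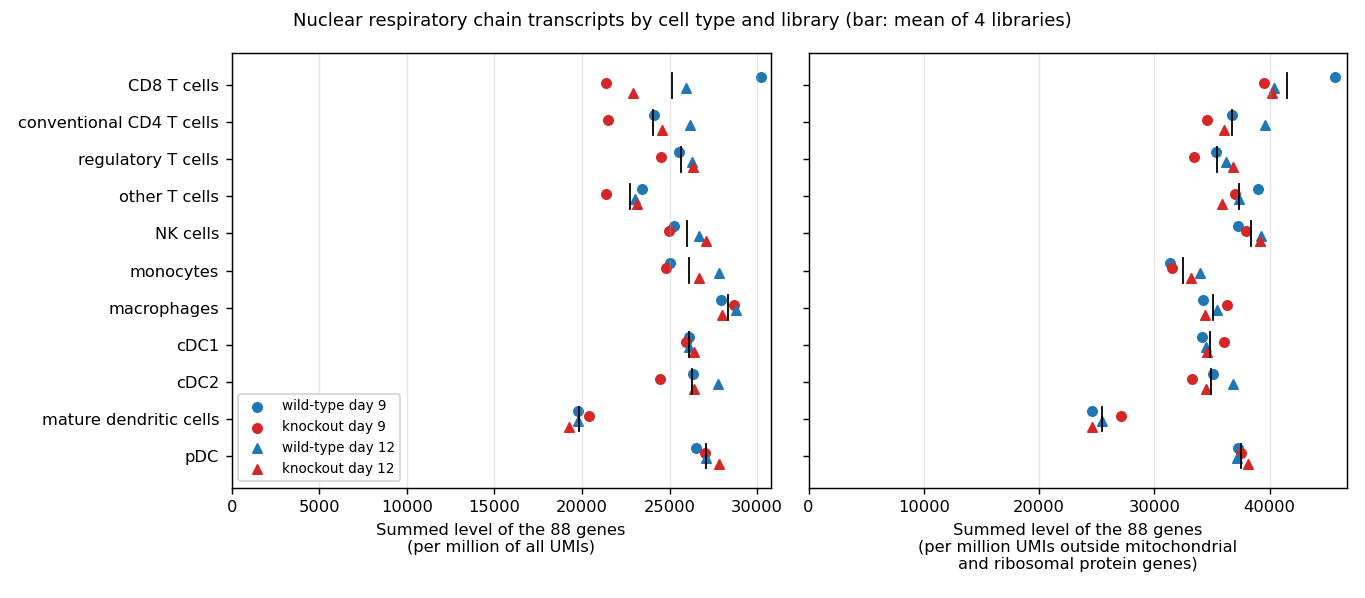
Summed level of the 88 genes by cell type, as a part of all UMIs (left) and of the UMIs outside mitochondrial and ribosomal protein genes (right), in UMIs per 1000000. Each symbol is 1 library and each bar the mean of 4. Mature dendritic cells lie lowest in both panels, and CD8 T cells move from a mean of 25110 on the left to 41470 on the right, above all other types.

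The order of the other types depended on what the sum was set against. Genes of ribosomal proteins took 32.0%, 43.5%, 33.5% and 40.2% of the UMIs of CD8 T cells but 18.2% ± 1.57 (SD, n = 4 libraries) of those of monocytes. As a share of UMIs outside mitochondrial and ribosomal protein genes, the 88 genes made up 4.57%, 3.96%, 4.04% and 4.02% in CD8 T cells, and the lowest of these libraries was still above every library of macrophages (3.42%, 3.63%, 3.54% and 3.44%). On the share of all UMIs, CD8 T cells were above macrophages in wild-type day 9 and below them in the other 3 libraries. Mature dendritic cells stayed lowest on both (2.46%, 2.71%, 2.55% and 2.46% on the second).

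Mature dendritic cells, the Ccr7+ Fscn1+ cells that migrate to lymph nodes, had lower transcript levels of 17 of the 43 complex I genes than cDC1 and cDC2. In the same comparison 22.6% of all genes were lower, and complex I was not tested against other genes. Of 82 members tested, 24 were lower and 2 higher, which is 29.3% lower against 22.6% of all genes and 2.44% higher against 20.6% of all genes (43.1% of all genes were called in either direction). The share called lower was thus near that of all genes, while few members were called higher. The median log2 fold change was -0.26 over the members and -0.08 over all 9746 genes. Complex I, which had 43 of the 82 members tested, accounted for 17 of the 24 (median log2 fold change -0.39 over its 43 genes). Of its 7 core subunits, singled out after their values were seen, 5 were lower (median -0.76 over all 7). Complex III had 1 gene lower and 1 higher of 8, complex IV 3 lower and 1 higher of 15 tested, and complex V 3 lower of 16.

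Among the core subunits, Ndufs8, which carries iron-sulfur clusters, had 28.1, 73.3, 77.6 and 49.7 CPM in mature dendritic cells. In cDC1 it had 148, 181, 178 and 184 CPM and in cDC2 163, 160, 172 and 154 CPM. All 4 mature dendritic values lay below all 8 of the other dendritic cells, and Ndufs8 fell by 1.18 ± 0.16 on the log2 scale (edgeR, adjusted p = 7.7e-08). Ndufs3, Ndufs7, Ndufv1 and Ndufs1, the other core subunits called, fell by 0.94, 0.92, 0.75 and 0.76.
The assembly factor Ndufaf6 had the largest change, with 0, 9.36, 2.32 and 1.42 CPM against 20.9 to 31.2 CPM in cDC1 and 13.6 to 16.4 CPM in cDC2. It fell by 2.25 ± 0.36 (edgeR, adjusted p = 2.3e-06), on 10 UMIs in mature dendritic cells. The assembly factors Ndufaf7 and Ndufaf4 fell by 1.34 and 1.26, and the sum of the 7 assembly factors was 52.7, 117, 89.2 and 74.5 CPM against 151 to 168 CPM in cDC1 and 152 to 179 CPM in cDC2.
Among accessory subunits, Ndufa5 had 35.1, 56.1, 34.8 and 34.8 CPM, where cDC1 ranged from 82.6 to 125 CPM and cDC2 from 92.3 to 165 CPM. Its change was -1.25 ± 0.19 on the log2 scale (edgeR, adjusted p = 8.8e-07). Ndufa4, which is now counted with complex IV, had 232, 204, 196 and 206 CPM, below every cDC1 (473 to 527 CPM) and cDC2 library (380 to 514 CPM).

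Complex V and the other complexes differed by subunit. The membrane ring of the ATP synthase is made of 1 protein, subunit c, that 3 genes encode. Atp5g1 had 137, 218, 182 and 148 CPM in mature dendritic cells, 360 to 424 CPM in cDC1 and 447 to 571 CPM in cDC2, and fell by 1.07 ± 0.10 (edgeR, adjusted p = 4.3e-11). Atp5g3 fell by 0.81, with 98.4 to 146 CPM against 192 to 342 CPM in both other types. Atp5g2 did not pass, with 467 to 533 CPM against 452 to 552 CPM. The ranges of the third gene overlapped, and those of the other two did not.
Uqcrh, the hinge protein of complex III, went the other way. It had 949, 867, 929 and 978 CPM in mature dendritic cells, 482 to 584 CPM in cDC1 and 516 to 626 CPM in cDC2, a log2 fold change of 1.08 ± 0.09 (edgeR, adjusted p = 2.5e-13). Cox7a2l rose by 0.72 ± 0.12 on the log2 scale, with 559, 783, 693 and 573 CPM against 414 to 658 CPM in cDC1 and 383 to 485 CPM in cDC2. The ranges of Cox7a2l overlapped with those of cDC1, and the gene was not called when sums were scaled to total UMIs only (0.42). That scaling moved the median of all genes to -0.40 and called 37 members lower and 1, Uqcrh, higher.

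**Figure D2:**
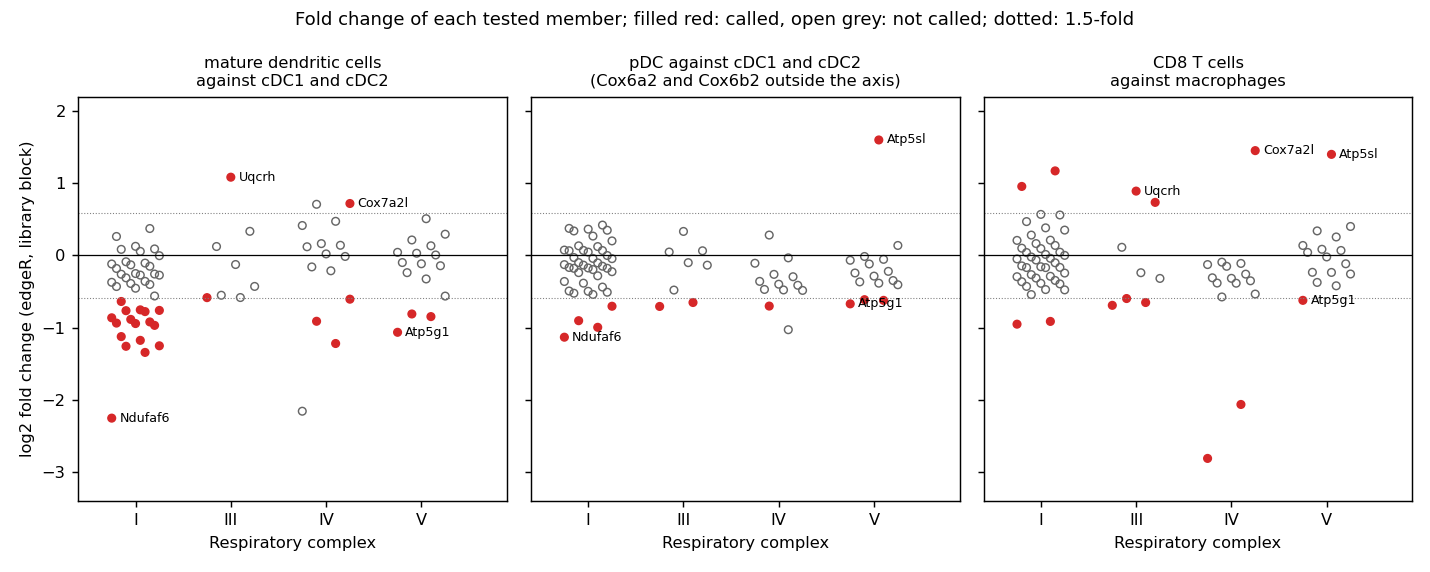
log2 fold change of each tested member by respiratory complex in mature dendritic cells and pDC, each against cDC1 and cDC2, and in CD8 T cells against macrophages. Filled red points were called and open grey points were not. In mature dendritic cells 17 complex I genes lie below the lower dotted line as red points, and Uqcrh and Cox7a2l are the red points above 0.

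Lists of genes around the chain were counted in the same comparison, in which 22.6% of all genes were called lower and 20.6% higher. Cycs, the mobile electron carrier cytochrome c, fell by 1.78 ± 0.14. Mitochondrial ribosome genes were lower in 30 and higher in 7 of 76 tested, citrate cycle genes lower in 4 of 13, complex II genes lower in 2 of 4, and assembly factors of other complexes lower in 11 and higher in 3 of 34. Glycolysis genes were lower in 5 and higher in 2 of 14, and biogenesis factors lower in 4 and higher in 2 of 11. The mitochondrially encoded subunits were lower in 1 of 12 tested. The 4 melanoma markers summed to 6.24 to 36.9 CPM in mature dendritic cells against 2.32 to 6.60 in cDC1 and 0 to 8.33 in cDC2, and their part in the result was not tested. Wild-type day 9 had 32 mature dendritic cells, and without any 1 library the number of members called stayed between 25 and 30.

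In pDC, the interferon-producing dendritic cells, the alternative subunit Cox6a2 stood beside the widespread Cox6a1. The chain summed to 2.71% ± 0.0543 of UMIs in pDC against 2.61% ± 0.0192 in cDC1 (SD, n = 4 libraries). It was 2.63% ± 0.136 in cDC2, whose range (2.45% to 2.78%) overlapped that of pDC. Of 82 members, 2 were higher (2.44% against 16.6% of all genes) and 11 lower (13.4% against 15.5%), 15.9% against 32.1% in either direction, so the share called was at or below that of all genes. The median log2 fold change was -0.18 over the members and -0.02 over all genes. Cox6a2 (chromosome 7, 128205435 to 128206387, minus strand, mm10) is the form of complex IV subunit 6A known from heart and skeletal muscle. It had 1590, 2010, 1290 and 1722 CPM in pDC and 1.40, 6.81, 0 and 0.897 CPM in cDC1 and cDC2 together. That is 1135 times the level in wild-type day 9 (95% counting interval 312 to 9406), 295 times in knockout day 9 (181 to 517), at least 1633-fold higher in wild-type day 12 against a floor of 3 counts over cDC1 and cDC2 (1314-fold at the lower 95% counting limit of the ratio), and 1920 times in knockout day 12 (525 to 15960). Within the pooled cells, cDC1 of knockout day 9 held Cox6a2 at 25.5 CPM and cDC2 of that library at 2.61 CPM. That cDC1 sum, of 27 cells, also held the pDC marker Ly6d at 67.2 CPM. The cDC1 of wild-type day 9, wild-type day 12 and knockout day 12 held Ly6d at 3.57, 1.30 and 0 CPM. The part of these markers in the ratio was not tested. The edgeR fit of Cox6a2 gave an adjusted p of 2.0e-19, with the knockout day 12 library, which had 15 pDC, left out for its cell number.

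At least 1 Cox6a2 UMI was found in 246 of 263 pDC (93.5%, exact binomial 95% interval 89.9% to 96.2%, median depth 7049 UMIs). In CD8 T cells the share was 0.736% at a median of 6802 UMIs. That share is taken as the background by assumption, with Cox6a2 at 0.764, 3.82, 0 and 0 CPM in CD8 T cells of the 4 libraries. With each cell thinned to 2000 UMIs the shares were 86.7% and 0.164%. No other type came near pDC: macrophages had 3.78% (0.525% thinned, median 10376 UMIs) and NK cells 3.84% (1.57% thinned, median 4273 UMIs).
Cox6a1, the widespread form, was present in pDC beside Cox6a2 at 535, 507, 543 and 561 CPM. These were 0.799, 0.857, 0.772 and 0.885 times the levels in cDC1 and cDC2 together, and the gene was not called. pDC thus held transcripts of both forms. The knockout day 9 library had 195 of the 263 pDC, and its Siglech, a pDC marker, was 94.5 CPM against 972 to 2324 CPM in the others, while Ly6d (3401 to 4301 CPM) and Cox6a2 were similar in all 4.

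**Figure D3:**
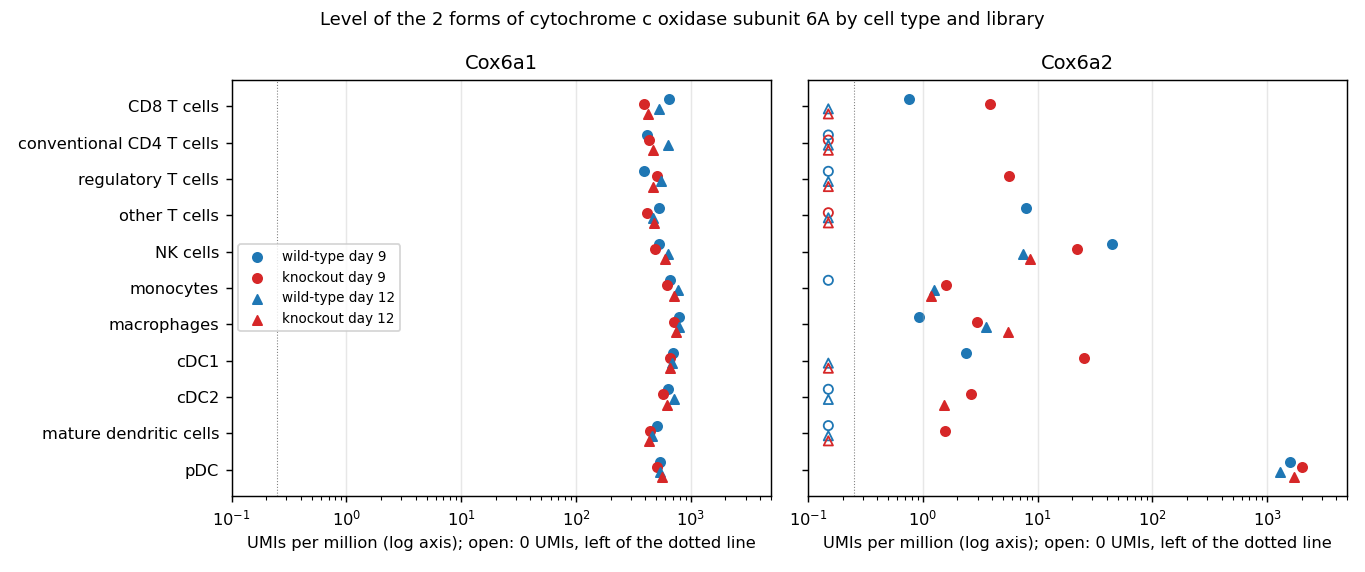
Level of Cox6a1 and Cox6a2 in UMIs per 1000000 on a log axis, by cell type, with 1 symbol per library and open symbols for 0 UMIs. Cox6a1 lies between 387 and 795 in all types, while Cox6a2 lies above 1200 in the 4 pDC samples and at or below 44.7 elsewhere.

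The other alternative form that separated dendritic cells was Cox6b2, the form of subunit 6B known from testis (chromosome 7, 4751792 to 4753094, minus strand, mm10). cDC2 had 42.5, 21.4, 47.8 and 43.2 CPM, cDC1 7.14, 11.6, 18.2 and 17.6 CPM, monocytes 8.49 to 13.7 CPM, mature dendritic cells 3.52 to 9.36 CPM, macrophages 4.02 to 6.47 CPM and pDC 0, 2.17, 0 and 0 CPM. The lowest cDC2 library was above the highest measured value of every other type. In the wild-type and knockout day 12 pDC sums, however, a count of 0 allows up to 22.6 and 23.7 CPM. Between cDC1 and cDC2, 3 of 82 members were called (3.66% against 19.0% of all genes): Cox6b2 fell by 1.38 ± 0.29 in cDC1, and the assembly factors Ndufaf6 and Ndufaf1 had log2 fold changes of 0.81 and 0.84. Of the 3, only Cox6b2 was called under every alternative run. Cox6b2 also fell by 3.67 ± 0.62 in pDC (edgeR, adjusted p = 8.8e-06), on 3 UMIs there. In mature dendritic cells it fell by 1.22 ± 0.34 against cDC1 and cDC2 together. Cox6b1, the widespread form, ranged from 461 to 867 CPM over all types.
The remaining pDC calls were smaller. Ndufa6, an accessory subunit, had 427, 298, 347 and 292 CPM in pDC against 561 to 639 CPM in cDC1 and 485 to 729 CPM in cDC2, and Ndufb8 had 182, 230, 204 and 213 CPM against 295 to 414 CPM in both. They fell by 1.00 and 0.90. Ndufaf6 fell by 1.13 and Uqcrc1, a core protein of complex III, by 0.71, but the knockout day 12 pDC value of Uqcrc1 (316 CPM) was above every cDC1 and cDC2 library. Atp5sl had a log2 fold change of 1.60, with 31.0, 33.9, 15.1 and 31.6 CPM. Scaling to total UMIs only called 2 members higher and 4 lower and moved the median of all genes to 0.13, and 21 members were called without the knockout day 9 library.

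pDC also stood apart in the mitochondrially encoded part of the chain. The 13 mitochondrial genes together made up 3.20%, 3.32%, 3.64% and 3.53% of the UMIs of pDC, against 1.47% to 2.00% in cDC1 and 1.42% to 1.85% in cDC2. Of 12 tested, 11 were higher in pDC than in cDC1 and cDC2, where 16.6% of all genes were (median log2 fold change 0.87), among them mt-Co1, the catalytic subunit of complex IV, at 1.13 ± 0.11. The ratio of mitochondrially to nuclear encoded transcripts was 1.21, 1.23, 1.34 and 1.27 in pDC and did not overlap with cDC1 (0.561 to 0.767), cDC2 (0.540 to 0.701), NK cells (0.683 to 0.791), monocytes (0.542 to 0.698) or macrophages (0.465 to 0.754). In CD8 T cells the ratio ranged from 0.611 in wild-type day 9 to 1.25 in knockout day 12, and the latter lay within the range of pDC. Conventional CD4 T cells (0.828 to 1.19) and other T cells (0.932 to 1.15) came close to pDC without overlap. Regulatory T cells (0.688 to 1.02) and mature dendritic cells (0.444 to 0.845) lay lower. The ratio is bounded by the limit of 10% mitochondrial UMIs set on each cell. Among the lists, glycolysis genes were lower in pDC in 10 of 14, against 15.5% of all genes (median -0.93), with Ldha at -0.92 and Gapdh at -0.67, citrate cycle genes lower in 3 and higher in 1 of 13, and Cycs lower by 1.63 ± 0.16.

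**Figure D4:**
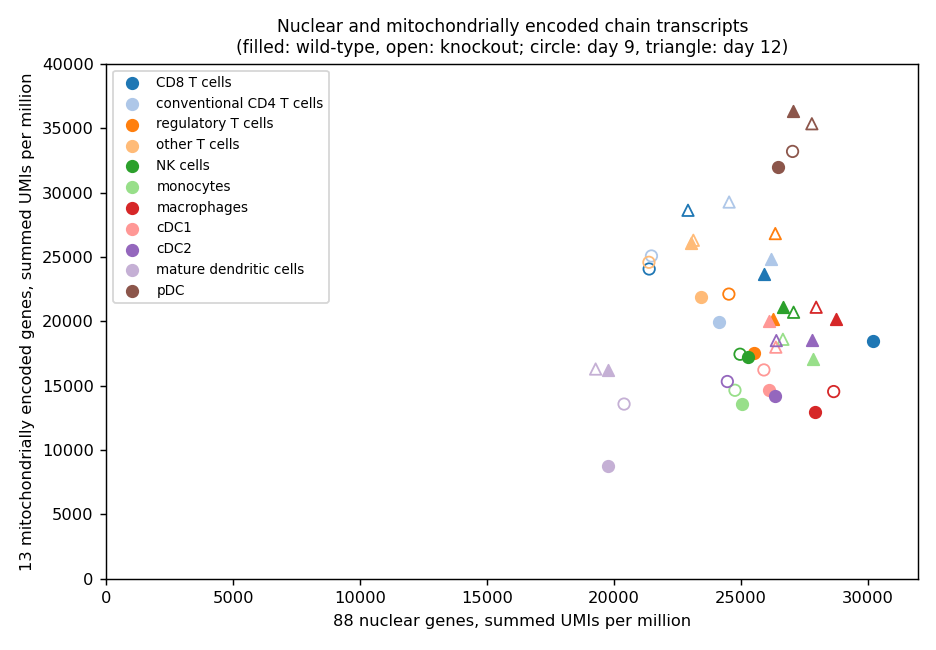
Summed UMIs per 1000000 of the 13 mitochondrially encoded genes against those of the 88 nuclear genes, with 1 symbol per cell type and library. The 4 pDC samples lie highest, and mature dendritic cells lie furthest left, at 19280 to 20400 on the horizontal axis.

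CD8 T cells and macrophages differed in single subunits, with Cox7a2l and Uqcrh higher and Ndufc1 and Cox7a1 lower in CD8 T cells. Of 82 members, 6 were higher in CD8 T cells (7.32% against 28.2% of all genes) and 8 lower (9.76% against 25.4%), which is 17.1% against 53.5% in either direction. The median log2 fold change was -0.15 over the members and 0.09 over all genes, and the difference between these shares was not tested. Cox7a2l had 443, 790, 656 and 671 CPM in CD8 T cells and 224, 249, 271 and 208 CPM in macrophages, a log2 fold change of 1.45 ± 0.14 (edgeR, adjusted p = 1.1e-11). Uqcrh had 809, 879, 855 and 817 CPM against 481, 485, 463 and 441 CPM, a log2 fold change of 0.89 ± 0.10. Neither pair of ranges overlapped. Atp5sl, Ndufaf1 and Ndufaf7 had log2 fold changes of 1.40, 1.17 and 0.96.
In the other direction, Ndufc1, an accessory subunit, had 187, 108, 147 and 107 CPM in CD8 T cells against 276, 266, 287 and 304 CPM, and fell by 0.95 ± 0.13. Ndufb8 fell by 0.91, Uqcrb of complex III by 0.69, and Cox7a1, the muscle form of subunit 7A, by 2.81, with 0 to 2.40 CPM against 8.88 to 19.2 CPM. Cox6a2 fell by 2.07 on 14 UMIs in CD8 T cells and 80 in macrophages, within the low shares of cells given above. The mitochondrially encoded subunits were higher in CD8 T cells in 5 of 12 (median 0.56). Among non-cycling cells only, 23 members were called, and without the wild-type day 9 library 22.

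The alternative forms of complex IV subunits other than Cox6a2 and Cox6b2 were rare where they occurred. Cox4i2, the form of subunit 4 known from lung, had 3.72, 5.55, 4.64 and 3.84 CPM in macrophages and 1.71, 2.98, 2.69 and 1.75 CPM in monocytes, 1 UMI in cDC2 and 0 in the 8 other types, where a count of 0 in all 4 libraries of CD8 T cells allows up to 0.238 CPM. Cox4i1, the widespread form, ranged from 860 to 1736 CPM over all types. Cox7a1 was found at 10.2, 8.88, 12.7 and 19.2 CPM in macrophages, and Cox7a2, its widespread form, ranged from 307 to 742 CPM over all types. Cox8a, of which Cox8b and Cox8c are the alternative forms, ranged from 648 to 1244 CPM.
Between macrophages and monocytes, 1 member was higher and 2 were lower in macrophages of 82 (3.66% against 6.07% of all genes), and none of the 3 was called under every alternative run. Cox7a1 had a log2 fold change of 0.97 ± 0.31, Cox6b2 fell by 1.24 ± 0.26, and Ndufaf7 by 0.73 ± 0.19, with 10.2 to 14.8 CPM in macrophages and 14.1 to 27.3 CPM in monocytes, whose ranges overlapped. The melanoma markers summed to 85.1 CPM in the knockout day 9 monocytes and 4.26 to 13.2 CPM in the others, and 1 member was called without that library. The same count, 1, remained without knockout day 12.

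NK cells differed from CD8 T cells in 1 of 82 members (1.22% against 12.9% of all genes), Cox6a2, with a log2 fold change of 4.08 ± 0.70 (edgeR, adjusted p = 3.9e-05). It had 44.7, 22.1, 7.46 and 8.53 CPM in NK cells and 0.764, 3.82, 0 and 0 CPM in CD8 T cells, so both day 9 NK libraries lay above both day 12 ones. The pDC markers Ly6d (5.16, 5.73, 0.415 and 1.71 CPM) and Tcf4 (60.2, 41.75, 31.1 and 34.1 CPM) were also higher in both day 9 NK sums. Siglech (1.72, 0.819, 0 and 0 CPM) and Klk1 (0.86, 0.819, 0 and 0 CPM) had UMIs only at day 9. A count of 0 allows up to 1.24 and 1.71 CPM in the wild-type and knockout day 12 NK sums, so neither marker shows a difference between the days. Ccr9 (2.58, 1.64, 1.66 and 0 CPM) and Bst2 (232, 119.5, 163 and 154 CPM) did not separate the days. In pDC Ly6d stood above Cox6a2. In NK cells Cox6a2 stood above Ly6d in every library. The part of these markers in the result was not tested.

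Cycling cells, marked by UMIs of proliferation genes such as Mki67, could be compared with non-cycling cells of the same type in 7 pairs of sums, from 4 types and 3 libraries. Ndufa6 was lower and the assembly factor Ndufaf2 higher, 2 of 81 members (2.47% against 21.6% of all genes). Ndufa6 had 208 and 320 CPM in cycling and non-cycling CD8 T cells of wild-type day 9, and 207 and 350 CPM in NK cells of wild-type day 12. It was lower in the cycling cells of all 7 pairs, by a factor of 0.539 to 0.922, and fell by 0.67 ± 0.11 in the fit (edgeR, adjusted p = 2.3e-04). Ndufaf2 had 47.1 and 24.9 CPM in the same CD8 T cells and was higher in 7 of 7 pairs, by a factor of 1.05 to 2.64 (log2 fold change 0.69 ± 0.17). Its 95% counting intervals included no difference in wild-type and knockout day 12 macrophages (0.777 to 2.41 and 0.556 to 1.85) and in cDC1 (0.686 to 3.78). Those of Ndufa6 also reached no difference in these macrophages (0.684 to 1.0 and 0.770 to 1.10). The sum of the 88 genes was 1.22 and 1.30 times as high in cycling as in non-cycling CD8 T cells of wild-type day 9 and day 12, 1.08 to 1.17 times in NK cells and macrophages, and 0.996 times in cDC1 (95% counting interval 0.976 to 1.02). With sums scaled to total UMIs only, Ndufa6 was not called and Uqcr10 was called higher in its place (0.60).

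The last comparisons asked whether the T cell deletion went with the level of the chain. Knockout and wild-type libraries were compared with the day as a covariate, over 2 libraries each, and the fit leaves 1 residual degree of freedom, so that its p-values lean on the spread shared by all genes. In CD8 T cells, 2 of 79 members were called, both lower in the knockout (2.53% against 12.0% of all genes). Cox5b, a zinc-binding subunit of complex IV, had 759 and 567 CPM in the wild-type libraries at day 9 and day 12 and 373 and 402 CPM in the knockout ones, a change of -0.64 ± 0.22 (edgeR, adjusted p = 0.037). Ndufb7, an accessory subunit of complex I, had 462 and 423 CPM against 238 and 296 CPM (-0.61 ± 0.22, adjusted p = 0.044). Neither was called in non-cycling cells, with stricter gates, without doublet removal or by DESeq2. The median log2 fold change was -0.22 over the members and 0.02 over all genes, and 34 of 43 genes of complex I, 6 of 8 of complex III, 11 of 12 of complex IV and 13 of 16 of complex V lay below 0. The cell numbers were 648 and 216 in wild-type and 312 and 47 in knockout at day 9 and day 12.

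Taken day by day, with 1 library per genotype and no test, the values at day 9 lay further from 0. At day 9, 36 of 82 members were at least 1.5-fold lower in knockout CD8 T cells and 1, Cox7a2l, was higher, against 25.6% of all genes lower and 14.0% higher, and the median log2 ratio was -0.54 (all genes -0.16). The sum of the members was 0.708 times the wild-type level (95% counting interval 0.700 to 0.715). At day 12, 3 of 79 were lower and 2 higher, against 23.0% of all genes lower and 14.6% higher, with a median of -0.19 (all genes -0.09) and a ratio of the sums of 0.884 (0.860 to 0.909). Set against UMIs outside mitochondrial and ribosomal protein genes, the ratios were 0.866 (0.856 to 0.875) at day 9 and 0.996 (0.968 to 1.02) at day 12. Cycling cells made up 40.6% and 18.1% of wild-type CD8 T cells at day 9 and day 12 and 2.88% and 4.26% of knockout ones. Among non-cycling cells the ratio of the sums was 0.763 at day 9, with 19 of 79 members at least 1.5-fold lower (20.6% of all genes), and 0.946 at day 12. These intervals cover counting error only, and the spread between mice is not in them.

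**Figure D5:**
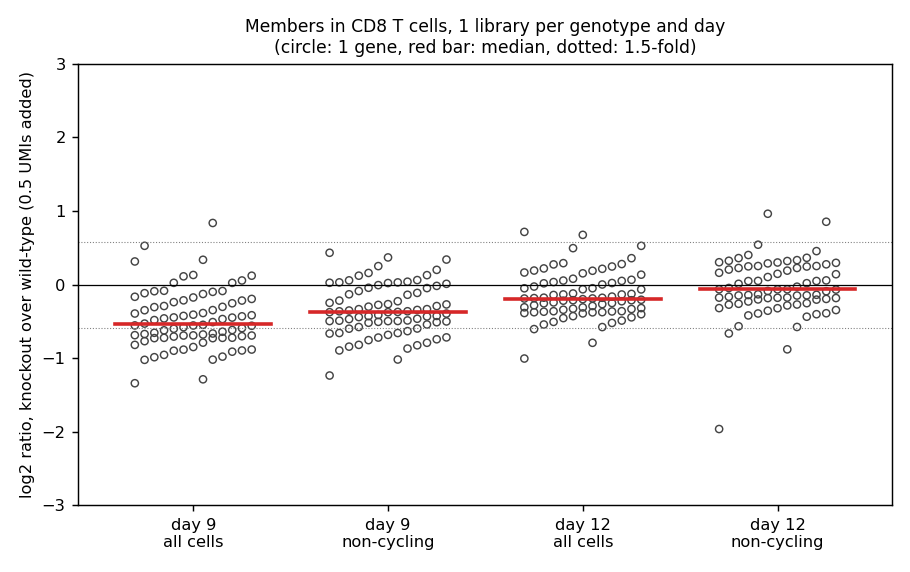
log2 ratio of each member in CD8 T cells, knockout over wild-type, with 0.5 UMIs added to each count, at day 9 and day 12 in all cells and in non-cycling cells. The red bars are medians: -0.54 and -0.37 at day 9, -0.19 and -0.07 at day 12.

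Between the genotypes, no member was called in NK cells (0.140% of all genes called), macrophages (0.406%), monocytes (0.684%), cDC1 (0.115%) or cDC2 (0.774%) by edgeR, with 0, 0, 0, 3 and 0 members at an unadjusted p under 0.05, and DESeq2 also called 0 in these 5 types. In the 10 types other than CD8 T cells, the sum in the knockout was 0.890 (conventional CD4 T cells at day 9) to 1.03 times that in the wild type of the same day. The largest log2 fold changes, none of which passed, were Cox6a2 (-0.59) and Ndufaf2 (0.46) in NK cells, Cox6b2 (-0.44) and Cox6a2 (0.76) in macrophages, Ndufaf6 (-0.27) and Cox6b2 (0.53) in monocytes, Ndufaf4 (-1.02) and Ndufaf2 (0.84) in cDC1, and Cox6b2 (-0.49) and Ndufaf1 (0.33) in cDC2. Next in order came Ndufv3 (-0.21), Ndufa6 (-0.13), Ndufaf5 (0.32) and Ndufs1 (0.27) in NK cells, and Ndufaf6 (-0.32), Atp5sl (-0.27), Ndufaf4 (0.44) and Cox7a1 (0.35) in macrophages. In monocytes they were Ndufaf3 (-0.22), Atp5g3 (-0.22), Atp5sl (0.46) and Cox7a1 (0.43), in cDC1 Ndufaf7 (-0.37), Ndufaf6 (-0.32), Ndufa9 (0.46) and Ndufaf5 (0.36), and in cDC2 Atp5sl (-0.47), Atp5j2 (-0.38), Ndufv1 (0.31) and Uqcrc1 (0.28). Most of these are among the rarer members, whose standard errors reached 0.47.

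Between day 9 and day 12, few members were called. Monocytes had 2 of 83 called (2.41% against 4.41% of all genes): Ndufs1, the largest core subunit of complex I, had 36.7 and 34.0 CPM at day 9 and 16.1 and 19.3 CPM at day 12 in wild-type and knockout, and fell by 0.91 ± 0.20 (edgeR, adjusted p = 0.038). Atp5g3 had 224 and 193 CPM at day 9 and 332 and 284 CPM at day 12, a log2 fold change of 0.62 ± 0.14. NK cells had 2 of 80 (2.50% against 6.16%), Atp5g3 at 0.66 ± 0.16 and Cox6a2 at -2.06 ± 0.34. None of these calls in monocytes and NK cells was made by DESeq2 or in non-cycling cells. At an unadjusted p under 0.05 (edgeR) there were 17 members in monocytes and 13 in NK cells. The median log2 fold change of the members was 0.20 in monocytes, 0.16 in NK cells and 0.16 in cDC2, against 0.013, -0.0013 and -0.0025 over all genes. In CD8 T cells, macrophages and cDC1 the member medians were -0.05, -0.012 and -0.008. These shifts of the medians were not tested. No member was called in CD8 T cells (3.07% of all genes), macrophages (0.487%), cDC1 (0.0659%) or cDC2 (2.30%) by edgeR, with 1, 2, 1 and 5 members at an unadjusted p under 0.05 and 0 called by DESeq2.
Ndufs1 was lower at day 12 in both genotypes in these types too. It had the log2 fold changes -0.66 in CD8 T cells, -0.62 in macrophages, -0.35 in cDC1 and -0.96 in cDC2, none past the test. In NK cells the log2 fold change of Ndufs1 was -0.85, also short of the test (edgeR, adjusted p = 0.052). In CD8 T cells the other largest values were Ndufaf7 (-0.55), Ndufa3 (-0.44), Ndufaf6 (0.81), Atp5sl (0.66) and Atp5g3 (0.29), and in macrophages they included Uqcrc2 (-0.35), Cox6a2 (1.05), Cox7a1 (0.82) and Atp5s (0.74). In cDC1 they were Ndufaf1 (-0.73), Ndufa5 (-0.44), Cox6b2 (1.00), Ndufaf5 (0.58) and Ndufa11 (0.51), and in cDC2 Atp5sl (-0.42), Ndufa3 (-0.18), Ndufaf5 (1.16), Ndufaf1 (0.78) and Cox6b2 (0.66). The day effects of different types come from the same 4 libraries.

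Of the 88 genes, 18 have near-identical copies in transcripts of other annotated genes over the last 500 bases of a transcript, where the reads lie. Copies needed at least 95% identity over at least 100 bases in the mm10 annotation, and the genome outside annotated transcripts was not searched. A further limit is that 5 of the 88 share exons with another gene on the same strand. The counts of genes with copies or overlaps are less certain. Among genes named above, Atp5g1, Atp5g2, Atp5k, Cox5b, Cox6c, Ndufb9, Ndufs3 and Uqcrb have such copies, and Atp5g2, Ndufb8 and Ndufb9 such overlaps. Atp5o, another of the 5, overlaps a second annotated gene of the same symbol. Cox6a1, Cox6a2, Cox6b2, Cox7a2l, Uqcrh and Ndufs8 have neither.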

How the data were processed

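The 4 deposited matrices give unnormalized UMI counts for each gene in each barcode. The submitters' processing notes name Cell Ranger 2.0.2 and the build mm10. Cells with at least 200 genes, at most 10% mitochondrial and at most 5% haemoglobin UMIs were kept, and the highest Scrublet scores, 0.8% per 1000 barcodes, were removed as doublets (25, 112, 109 and 34 barcodes). Cells were assigned to types by UMI counts of listed marker genes, with UMI thresholds set after the data were seen (for example at least 3 Cd3 UMIs and at most 1 UMI of NK markers). The members and lists were chosen with earlier results of these data known. Counts were summed per type and library, and sums of at least 20 cells were fitted with edgeR 4.0.16 (TMM, filterByExpr, quasi-likelihood F test) with library as a block between types, and with genotype and day within a type. The sums of the knockout day 12 pDC, conventional CD4 and regulatory T cells (15, 18 and 18 cells) had too few cells and were left out of the fit. Within a library the types share its preparation. Between types and between cycling and non-cycling cells, the block takes out differences between libraries. Those p-values measure the scatter that remains across the libraries of pooled mice, with a spread shared by all types fitted. In the genotype and day fits, p-values lean on the spread shared by all genes. Named genes were the up to 5 called members of largest fold in each direction, the members with an alternative form, and, where none was called, the 3 of largest fold in each direction. The complex I core subunits and Uqcr10 were named after their values were seen. One member that this rule names is not reported here by name. DESeq2 1.42.0, other scalings, filters, gates and left-out libraries were tried as alternatives, and the fits were tested on simulated data. Of simulated 2-fold changes, the fits recovered 59.6% for mature dendritic cells against cDC1 and cDC2 and 88% for cycling cells. They recovered 32.6% for genotype in CD8 T cells and 43.1% for genotype in cDC1. At most 0.107% of unchanged genes were called. The simulated spread was set and not taken from these data. Ratios and shares carry exact 95% intervals for counting error only.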

Additional observations from a re-analysis of the deposited data

How the results depend on the processing

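No called member changed its direction in any alternative run. The number of members called for macrophages against monocytes was 1 without the library block, against 3. For CD8 T cells against macrophages it was 23 in non-cycling cells only, against 14. For pDC it was 6 with total UMIs only, against 13. For cycling cells it was 1 with stricter gates and 1 without the library block, against 2. For genotype in CD8 T cells it was 8 with total UMIs only, 1 with at most 5% mitochondrial UMIs, and 0 with DESeq2, without doublet removal, with stricter gates and in non-cycling cells, against 2. For day in NK cells it was 1 without doublet removal and 0 with DESeq2 and in non-cycling cells, against 2. For day in monocytes it was 0 with DESeq2, stricter gates and non-cycling cells, against 2, and for day in cDC1 it was 1 with no filter on low counts, against 0. The cause of these moves was not tested. Leaving out 1 library gave 1 to 3 members for macrophages against monocytes, 14 to 22 for CD8 T cells against macrophages, 1 to 2 for NK cells, 2 to 3 for cDC1 against cDC2, 25 to 30 for mature dendritic cells, 13 to 21 for pDC and 1 to 2 for cycling cells. The library whose absence gave the 22 was wild-type day 9, that for the 21 was knockout day 9, and that for the 1 in cycling cells was wild-type day 12.

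Of the called members, 21 of 26 in mature dendritic cells, 11 of 14 in CD8 T cells against macrophages and 4 of 13 in pDC (Cox6a2, Cox6b2, Ndufa6 and Ndufb8) were called under every alternative run. The same held for 1 of 1 in NK cells against CD8 T cells and 1 of 3 in cDC1 against cDC2. It held for 0 of 3 in macrophages against monocytes and for 0 of 2 each in cycling cells, genotype in CD8 T cells, day in NK cells and day in monocytes. The labels give no replicate numbers to pair; types were compared with library as a block. Leaving out a library in the genotype and day fits leaves no residual degrees of freedom. The genotype and day fits in cDC1 with stricter gates were not run, since sums fell under 20 cells. Members with few UMIs, such as Ndufaf6 in mature dendritic cells (10 UMIs), limit what can be shown, and small types (15 to 33 pDC in 3 libraries) limit it further.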

Other observations

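Members that share a promoter motif could be described beside the mature dendritic cell comparison. Of the 7 tested genes with the nuclear respiratory factor 1 palindrome, 1 was called lower (median log2 fold change -0.18), and of the 63 tested genes without it 21 were (median -0.27). Of the 14 genes with the ETS motif 3 were called lower (median -0.11), and of the 56 without it 19 were (median -0.29). These counts were read after the comparison was known and carry no test.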
